A study of Mus musculus with 5 samples.

Results

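The genes described here are 36 mouse genes of coagulation and complement, given by name in a list. Ago HITS-CLIP crosslinks RNA to Argonaute (Ago) proteins with ultraviolet light and sequences the RNA that comes down with an Ago antibody, so it reads stretches of mRNA held by Ago as clusters of overlapping reads. Livers of C57BL/6 mice were taken from embryos of 3 ages in days of gestation (e12.5, then e15.5, then e18.5), from pups at postnatal day 7 (P7) and from adults of 6 to 8 weeks (Adult), and received 3 exposures to 254 nm light of 0.2 J/cm2. The embryonic livers were precipitated with antibodies to Ago2 alone, and P7 and Adult livers with Ago1 antibodies as well, so an effect of the antibody cannot be told apart from one of birth. Each stage has 1 table of miRNA-target interactions, called a library here, and no test between stages was possible. The methods speak of 2 biological replicates, which the labels do not tell apart, and the supplement names a second library at e18.5, which the labels do not place. All 36 genes had an Ago cluster in the coding sequence (CDS), 3′UTR or 5′UTR in at least 1 library, out of 14348 genes with such a cluster. The libraries at P7 and Adult listed all 36, those at e12.5 and e18.5 listed 32 each, and that at e15.5 listed 30.

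Both systems are cascades of plasma proteases that are secreted mostly by hepatocytes. In coagulation, the factors activate each other until thrombin cuts fibrinogen into fibrin, and antithrombin, heparin cofactor and the protein C pathway hold the cascade in check while plasmin dissolves the clot. In complement, lectins, antibodies or the alternative pathway lead to cleavage of C3, and the terminal components then assemble a pore in the target membrane. Several of these genes belong to the acute-phase response of the liver, and miR-122, a miRNA of hepatocytes, is the best known miRNA of the tissue.

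Values are given as rpm, the reads of all mRNA-region clusters of a gene for every 1e+06 summed reads of all clusters in the table, and a series of 5 values runs from e12.5 over e15.5, e18.5 and P7 to Adult. The tables summed to between 13008703 and 44867326 cluster reads, and mRNA regions held from 13.5% of these in Adult to 30.03% at e18.5. A second scale, rpm of mRNA clusters, which divides by the reads of mRNA clusters alone, is therefore given where it changes a value. The e12.5, e15.5 and e18.5 tables each hold 2 lists of sites, which the labels do not describe. Values per list are given as the only spread within a stage. In the first and second list the summed level of the 36 genes was 761 and 314 rpm at e12.5, 1821 and 1160 rpm at e15.5, and 4375 and 2191 rpm at e18.5. Erythroid markers, with the near-identical Hba-a1 and Hba-a2, whose values were the same in each library, counted once, summed to between 18440 and 54280 rpm in the libraries up to P7 and to 890 rpm in Adult, and hepatocyte markers to 882 rpm at e12.5 and 11190 rpm in Adult. The amount of mRNA was not measured here, so more mRNA and more Ago per mRNA cannot be told apart, nor can fewer hepatocytes and less RNA per hepatocyte.

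Together the 36 genes held 462, 1338, 3922, 3314 and 4686 rpm. The Adult level was 10.2-fold that of e12.5, and 17.6-fold on the scale of mRNA clusters. Both lists at e12.5 lay below both lists at e15.5, and those lay below both lists at e18.5. Between e18.5 and P7 the level was 0.845-fold by table reads and 1.24-fold by mRNA reads, and P7 lay between the lists of e18.5 by table reads but, with 16190 rpm of mRNA clusters, above both of them (13450 and 10720) by mRNA reads, so no direction can be given for that step. The hepatocyte marker list, which holds Alb, Ttr and 10 others, was 12.7-fold higher in Adult than at e12.5. Macrophage markers, with 3 of 6 listed at e12.5 and 5 in Adult, went from 9.96 to 123 rpm (12.4-fold), and endothelial markers, all 5 listed in both, from 14.55 to 156.5 rpm (10.75-fold). Their part in the levels of the 36 genes was not tested. Set against the hepatocyte list, the 36 genes held 52.4, 50.2, 53.4, 35.5 and 41.9 reads for every 100 marker reads. Alb alone held 342 of the 882 rpm of that list at e12.5 and 6218 of the 11190 rpm in Adult, so these ratios depend on that gene. C3, Fga, Fgg, Fgb and Cfb together held 43.0%, 50.1%, 70.5%, 50.4% and 53.6% of the reads of the 36 genes. Complement genes made up 26.5%, 21.8%, 22.4%, 47.2% and 32.9% of the reads.

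**Figure D1:**
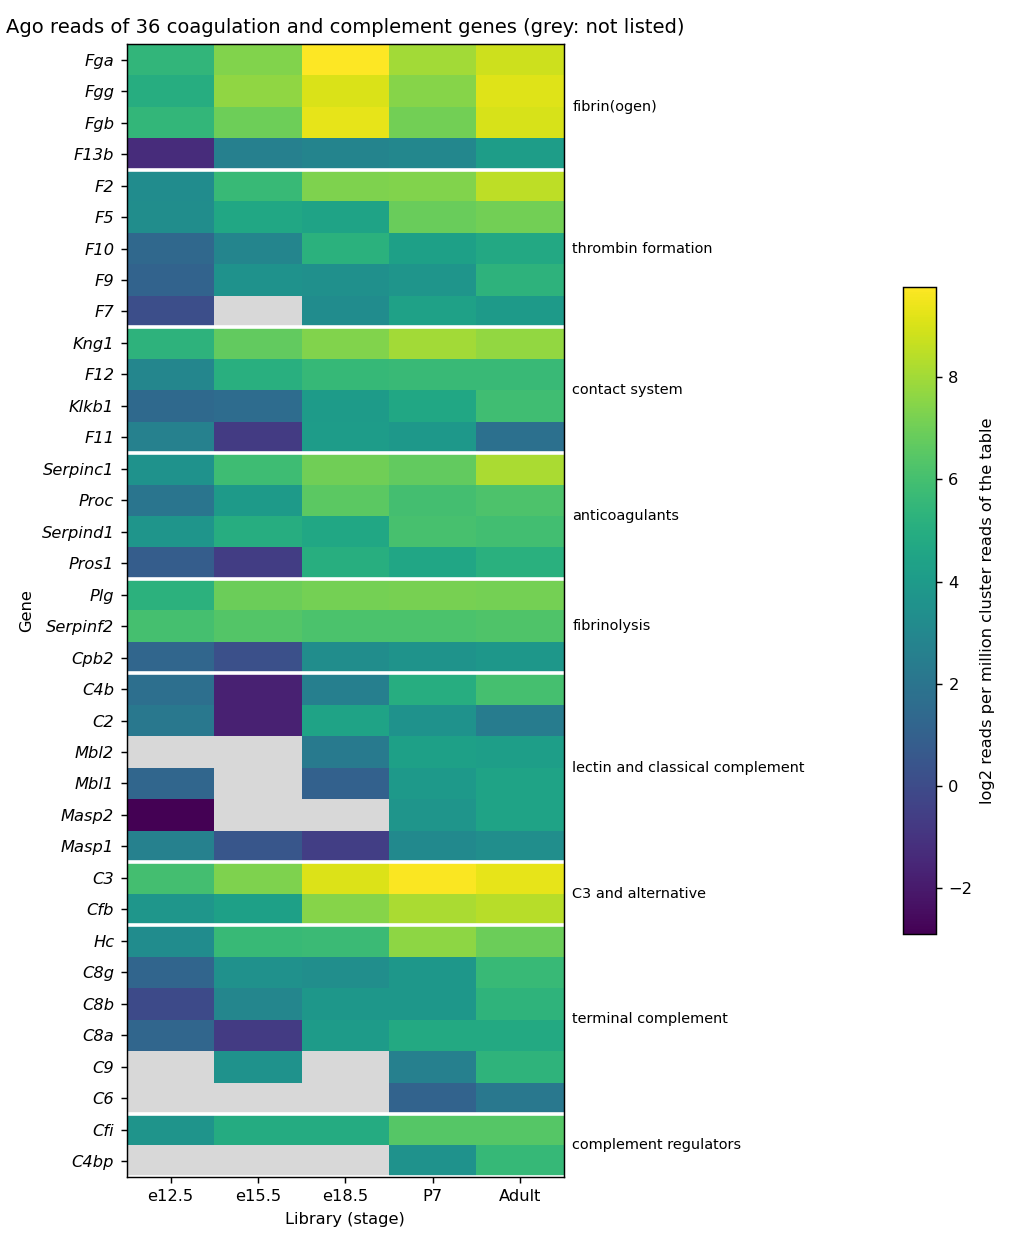
Ago reads of the 36 genes (rows, grouped by role) in the 5 libraries (columns), as log2 of rpm; grey marks a gene that is not listed. C3, Fga, Fgg and Fgb have the highest rpm summed over the libraries, though Serpinf2 stands highest at e12.5 and Cfb above Fga at P7. Grey cells end after e18.5.

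Fibrinogen is built from 3 chains, and their genes lie side by side on chromosome 3. Fga, the alpha chain, had 44.0, 165, 875, 258 and 445 rpm. Fgb, the beta chain, had 45.1, 127, 638, 133 and 513 rpm in the same order, and Fgg, the gamma chain, had 31.8, 201, 532, 175 and 574 rpm. All 3 genes were low at P7 and high on both sides of it. For Fga the lists at e18.5 had 991 and 432 rpm, for Fgb 722 and 313 rpm and for Fgg 585 and 333 rpm, each above the P7 value. The fibrinogen group held 7086 and 5295 rpm of mRNA clusters in the lists of e18.5, against 2803 at P7 and 11500 in Adult, so P7 was lowest of these stages on that scale as well. F13b, the carrier subunit of the fibrin-crosslinking factor XIII, was far lower, between 0.401 rpm at e12.5 and 17.9 rpm in Adult.

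The factors that make thrombin had their summed level at 25.3, 93.3, 238, 338 and 585 rpm from e12.5 to Adult, with 23.1-fold between the ends. Against the first list of e12.5 the Adult level was 18.8-fold, and against the second 26.0-fold. For the terminal components these were 11.3-fold and 26.7-fold, with 18.4-fold over the joined lists. F2, prothrombin, was the highest of them from e15.5 on, with 9.47, 49.2, 159, 167 and 366 rpm. F5, the cofactor of the prothrombin-cleaving complex, had 9.96, 25.0, 22.1, 118 and 137 rpm. F2 was thus 38.6-fold and F5 13.7-fold higher in Adult than at e12.5. F7, F9 and F10, which encode vitamin K-dependent proteases, stayed between 1.09 and 39.6 rpm wherever they were listed, and F7 was not listed at e15.5.

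In the contact system, Kng1, the precursor of bradykinin, led with 39.8, 106, 164, 259 and 209 rpm, but on the scale of mRNA clusters it was higher in Adult, with 1551 rpm, than at P7, with 1264 rpm. Its lists at e15.5 had 20.3 and 137 rpm, and in the first of them F12, with 67.0 rpm, stood above Kng1. F12 had 7.42 rpm at e12.5 and 51.6 rpm in Adult, and Klkb1, plasma prekallikrein, had 2.67 and 58.6 rpm. F11, the precursor of factor XIa, had 6.31, 0.605, 17.1, 14.5 and 3.37 rpm. Its lists at e12.5 had 16.2 and 1.43 rpm, on both sides of the Adult value, which rested on 2 clusters and 84 reads. On the scale of mRNA clusters it had 27.1 rpm at e12.5 and 25.1 rpm in Adult, so no direction can be given between these stages.

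Among the inhibitors of coagulation, Serpinc1, antithrombin, had 11.9, 56.6, 132, 106 and 289 rpm. Proc, protein C, had 4.06, 15.9, 94.0, 63.3 and 75.7 rpm. The second list of e18.5 had 40.4 rpm, below P7 and Adult, and on the scale of mRNA clusters Proc had 313 rpm at e18.5 against 309 rpm at P7 and 562 rpm in Adult, so the stage with its highest level differs between the scales. Serpind1, heparin cofactor II, had 67.2 rpm at P7 and 60.3 rpm in Adult, an order that turned on the scale of mRNA clusters, with 328 and 448 rpm. Pros1, protein S, had 35.4 rpm in Adult, between the lists of e18.5 with 41.6 and 2.59 rpm.

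The fibrinolysis genes differed least between the ends of the series, with 2.16-fold for their sum and 3.74-fold on the scale of mRNA clusters. Against the first list of e12.5 the sum was 1.11-fold and against the second 4.09-fold, the lowest of the role groups in each. Plg, plasminogen, had 38.2, 120, 139, 143 and 137 rpm, so its later values lay between 120 and 143 rpm. On the scale of mRNA clusters these later values were not level, with 404, 464, 700 and 1019 rpm. Serpinf2, the plasmin inhibitor alpha 2-antiplasmin, had 65.4, 84.3, 71.5, 72.1 and 78.3 rpm. At e12.5 it stood next to C3 with 64.0 rpm, and in the second list Kng1, with 36.9 rpm, was above it. It was 1.20-fold higher in Adult than at e12.5 by table reads, and on the scale of mRNA clusters it had 281 and 581 rpm. Its lists at e12.5 had 128 and 34.6 rpm, so the difference between the stages was smaller than that between the lists. Cpb2, which trims fibrin and so slows its lysis, stayed between 1.15 and 13.9 rpm.

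C3, the component on which all complement pathways meet, had 64.0, 158, 544, 823 and 633 rpm. Cfb, factor B of the alternative pathway, had 13.6, 19.98, 177, 283 and 346 rpm. Both genes of this arm were higher after birth than before it, also against the higher list of e18.5, with 588 rpm for C3 and 199 rpm for Cfb. C3 held 1806 and 1856 rpm of mRNA clusters in the lists of e18.5, against 4021 at P7 and 4702 in Adult.

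The genes of the lectin and classical pathways were low in the embryo and summed to 16.7, 1.998, 35.1, 100 and 143 rpm. C4b, the C4 component that both pathways cleave, had the highest rpm of them at P7 and in Adult, with 3.30, 0.303, 5.84, 31.9 and 64.9 rpm. Per kilobase of mRNA it stood below Mbl2, with 5.94 against 18.3 rpm per kb at P7 and 12.1 against 16.9 in Adult. The number of C4b clusters was 1, 1 and 2 in the embryonic libraries, 25 at P7 and 51 in Adult. Mbl1 and Mbl2, the mannose-binding lectins, and Masp2, their protease, each lacked a listing in at least 1 embryonic library and had between 12.9 and 21.9 rpm after birth. Masp1 had 6.31 rpm at e12.5 and 10.3 rpm in Adult, and C2 had 4.55 and 5.30 rpm, so neither passed 4-fold between these libraries. At e15.5, C2 and C4b each rested on 5 reads, the lowest number that the tables list.

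Of the terminal components, Hc, which encodes C5, had 9.67, 50.6, 53.0, 197 and 121 rpm. C8a, C8b and C8g, the chains of C8, had 0.958 to 2.41 rpm at e12.5 and 28.1 to 49.0 rpm in Adult. C6 was listed at P7 and Adult only, with 2.18 and 4.58 rpm, and C9 had 40.1 rpm in Adult and was not listed at e12.5 and e18.5. Of the regulators, Cfi, factor I, which cuts C3b and C4b, had 12.6, 29.7, 29.98, 86.6 and 87.0 rpm. C4bp, its cofactor for C4b, was listed at P7 with 11.8 rpm and in Adult with 47.9 rpm, and in no embryonic library.

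**Figure D2:**
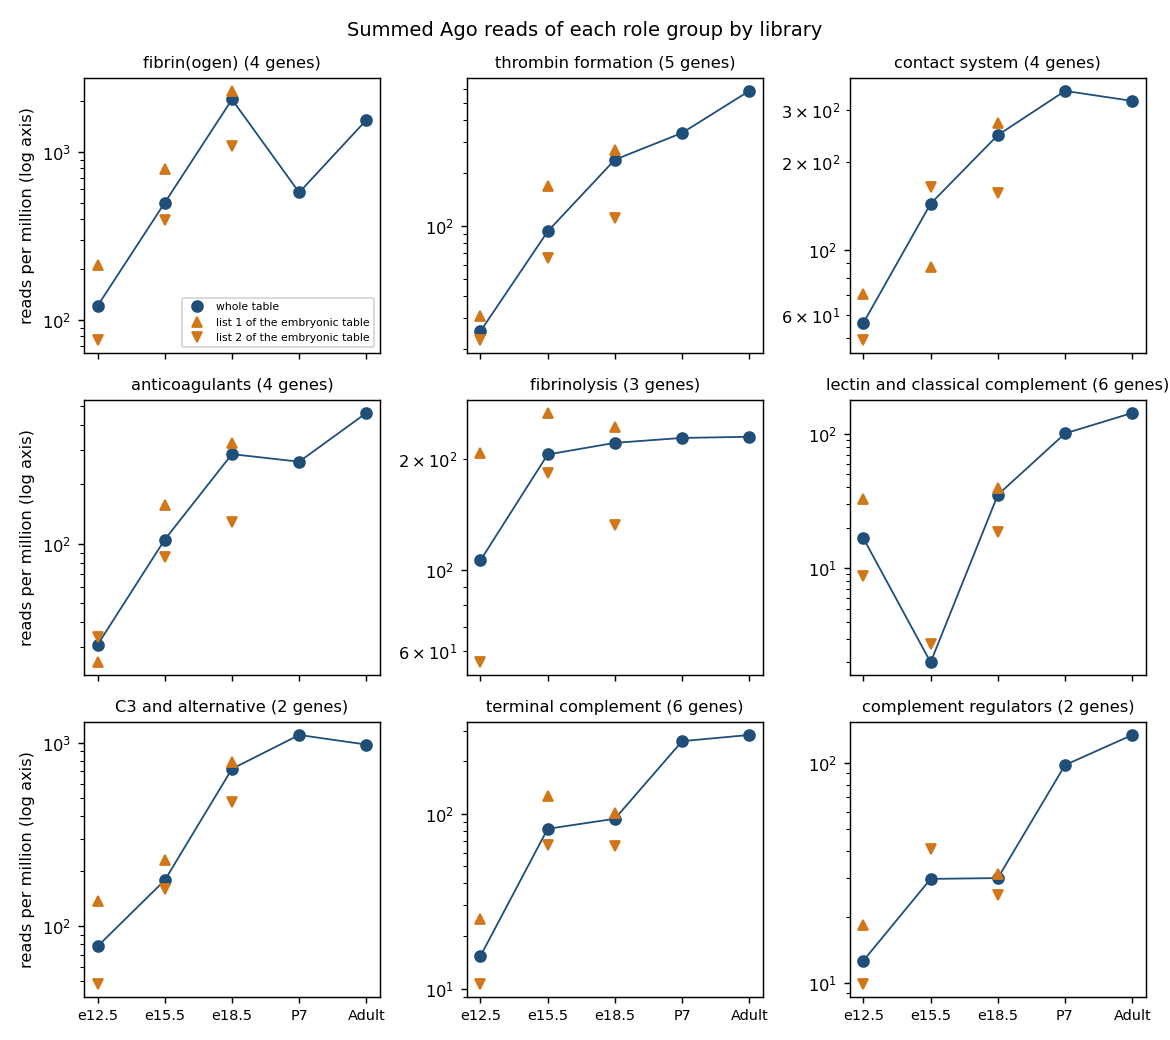
Summed rpm of the 9 role groups by library on log axes (circles: whole table; triangles: the 2 lists of each embryonic table, where above 0). The fibrinogen group stands at 2052 at e18.5, at 574 at P7 and at 1549 in Adult, while the terminal components and the regulators are higher at P7 than at e18.5.

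Per kilobase of mRNA of the transcript used, Fgg led in Adult with 330 rpm per kb. F2 followed with 184, Fga with 172, Fgb with 135, Cfb with 126 and C3 with 123. This order can depend on the transcript. That of Fgb, 3810 nt long, has a 3′UTR of 2265 nt in which Adult listed 0 clusters. The transcript of Serpinc1, 4970 nt long, has one of 3403 nt, also with 0. With 1 library a stage, no spread was available to separate neighbours in this order. At e12.5 Serpinf2 had 29.8 rpm per kb, Fgg 18.3 and Kng1 17.6. The order turned between the lists, since Serpinf2 led the first with 58.4 rpm per kb and Kng1 the second with 16.3, ahead of Serpinf2 with 15.8. At the other end in Adult stood F11 with 1.51, C6 with 1.59 and C2 with 2.01 rpm per kb.

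Between e12.5 and Adult, 32 of the 36 genes could be compared, since C4bp, C6, C9 and Mbl2 were not listed at e12.5. Of these, 27 were at least 4-fold higher in Adult, against a background of 12.48% of the 8865 genes listed in both libraries. All 27 were also at least 4-fold above each list of e12.5 that holds the gene. None was at least 4-fold lower, against a background of 29.2%. The 5 genes short of 4-fold were C2, F11, Masp1, Plg and Serpinf2, and of the 32 genes F11 alone had a ratio below 0 with both lists joined, -0.90 on the log2 scale. The median log2 ratio was 3.59 over the 32 genes and -0.86 over all 8865 genes. On the scale of mRNA clusters the medians were 4.38 and -0.07, with 28 of 32 genes at least 4-fold higher (background 19.3%) and none lower (background 18%). Masp2 had the highest ratio, 164-fold, but on 6 reads at e12.5. With the first list of e12.5 alone, 20 of 25 genes were at least 4-fold higher (4.66% of all genes) and F11 was lower by more than 4-fold, at -2.26 on the log2 scale (48.8% of all genes). In that list C2 and Serpinf2 were below 0 as well, at -1.05 and -0.71. With the second list alone, 27 of 31 genes were at least 4-fold higher (12.3% of all genes) and 0 lower (25.7%). F11 was higher in Adult, with 3.37 rpm, than in that list, with 1.43 rpm. Of other plasma protein lists of the liver, 3 of 3 albumin family genes listed in both libraries and 8 of 10 apolipoprotein genes were at least 4-fold higher, with medians of 4.19 and 3.21. The remaining albumin family gene, Afp, had 544 rpm at e12.5 and was not listed in Adult. No test between the lists was made.

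**Figure D3:**
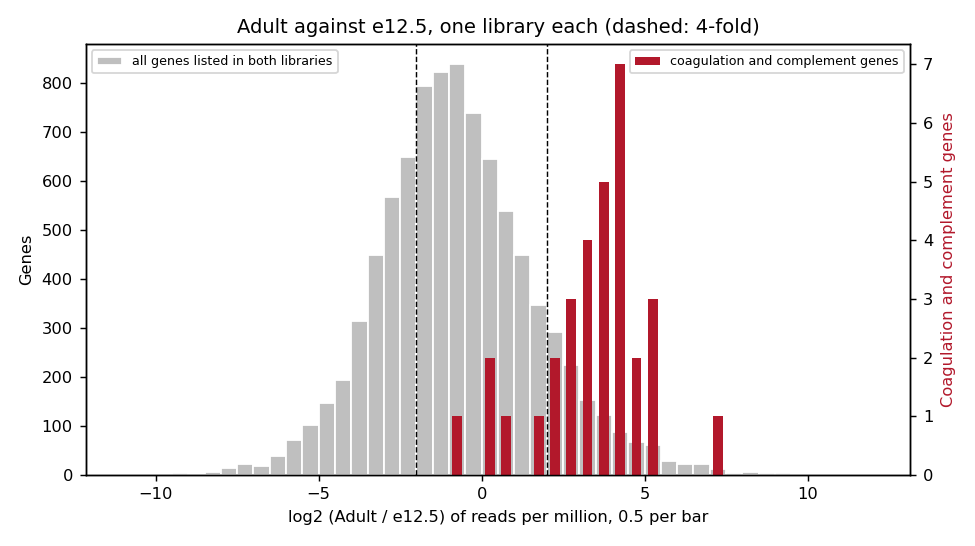
Histogram of log2 (Adult over e12.5) of rpm for 8865 genes (grey, left axis) and for 32 coagulation and complement genes (red, right axis), with dashed lines at 4-fold. Of the red bars, 27 genes lie to the right of the upper line and none to the left of the lower one.

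The single steps differed. From e12.5 to e15.5, 9 of 29 genes were at least 4-fold higher (background 10.4%) and C2, C4b, F11 and Masp1 were at least 4-fold lower (background 6.19%). These 4 had between 5 and 23 reads at e15.5. With each list of a stage set against each of the other that holds the gene, 2 of the 9, C8b and F13b, and 1 of the 4, C4b, stayed past 4-fold, each with 1 list of either stage to compare. C8g turned direction, with 3.46 rpm in its only list of e12.5 and 35.4 and 2.81 rpm in the lists of e15.5. From e15.5 to e18.5, 12 of 29 were at least 4-fold higher (background 15%), and none was lower (background 14.7%). Over the lists 6 of the 12 stayed past 4-fold, C2, C4b, C8a, Cfb, Cpb2 and F11, and of these Cfb alone is held by both lists of both stages. F10 also turned direction between lists, with 10.01 rpm in its only list of e15.5 and 8.52 rpm in the second of e18.5. From e18.5 to P7, C4b, F5, Masp1, Mbl1 and Mbl2 were at least 4-fold higher among 32 genes, a share of 15.6% against a background of 10.6%, and Fgb was at least 4-fold lower (background 14.9%). Over the lists of e18.5 C4b alone stayed past 4-fold. Fgb did not reach 4-fold on the scale of mRNA clusters, with 2123 and 648 rpm, or from the second list of e18.5, with 313 and 133 rpm. From P7 to Adult, C4bp and C9 were higher among 36 genes, a share of 5.56% against 3.28% of all genes, and F11 was lower, a share of 2.78% against 18.7%. On the scale of mRNA clusters F11 had 70.8 and 25.1 rpm and was short of 4-fold, so none of the 36 genes was lower (background 10.2%), and 8 were higher (background 6.53%), C8b, C8g, F9, Fgb, Fgg and Serpinc1 besides C4bp and C9. For the counts over lists no share over all genes was computed. The 5 comparisons share libraries, so they are not independent of each other.

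Other genes of the same pathways were compared from a list of further factors, receptors and regulators. Of 36 such genes listed in both libraries, 18 were at least 4-fold higher in Adult than at e12.5, a share of 50% against 12.48% of all genes, and A2m, F2r and Thbs1 were lower, 8.33% against 29.2%. Serping1, the C1 inhibitor, had 4.10 rpm at e12.5 and 193 rpm in Adult, and Clu, a fluid-phase regulator, had 13.4 and 487 rpm. Thbs1, an adhesive glycoprotein of platelets, had 35.6 rpm at e12.5 and 1.37 rpm in Adult, and F2r, the thrombin receptor, had 64.4 and 6.23 rpm. Megakaryocyte markers went from 34.6 rpm at e12.5 to 1.33 rpm in Adult, with 2 of 5 listed there, and their part in those 2 differences was not tested.

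Ago clusters of the 36 genes lay in the coding sequence more often than those of all genes together. In Adult, 620 of their 687 mRNA clusters, 90.2% (95% Wilson interval 87.8 to 92.2%), were listed under the CDS, against 72.9% over all genes, where a cluster can be listed under several regions. Clusters listed under the 3′UTR made up 12.1% (9.85 to 14.7%) against 29.7%. At e12.5 the 3′UTR shares were 18.7% (14.4 to 23.9%) and 41.5%, and the share of the 36 genes was below that of all genes in every library. The intervals cover counting error only. Per kilobase, the gap took another form. In Adult the CDS of the 36 genes held 8.15 clusters per kb against 2.03 over all protein-coding genes listed, and the 3′UTR held 3.38 against 1.06. Their 3′UTRs were short, with a median of 329 nt against 921 nt. F10 has a 3′UTR of 21 nt in the transcript used, and C3 and Cfb of 46 nt each. At e12.5 the densities were closer, with 3.12 and 2.64 clusters per kb of CDS and 2.13 and 2.28 per kb of 3′UTR.

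**Figure D4:**
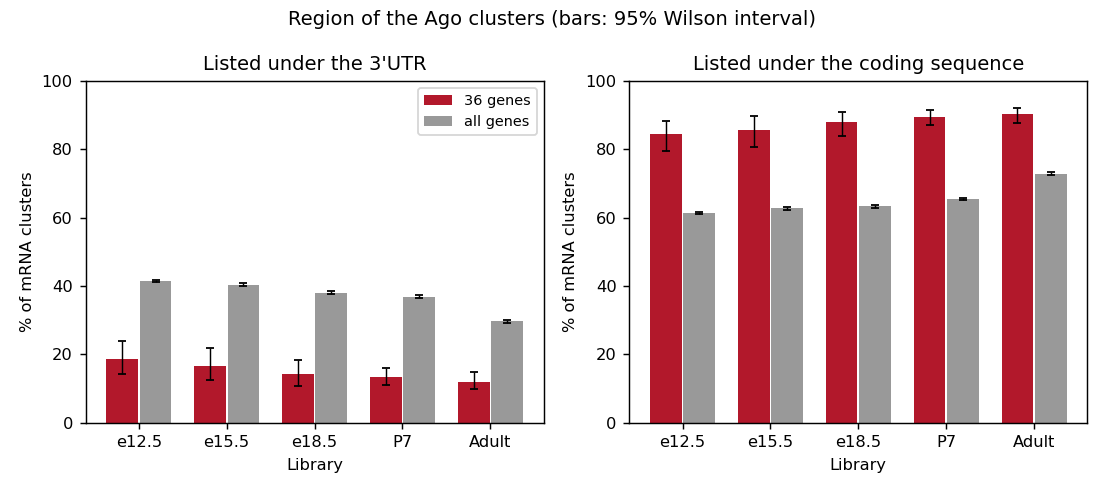
Percent of mRNA clusters listed under the 3′UTR (left) and the CDS (right) for the 36 genes (red) and all genes (grey) in each library, with 95% Wilson intervals. The 36 genes lie below all genes for the 3′UTR and above them for the CDS in all 5 libraries.

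Many 3′UTR clusters were listed under the CDS as well. In Adult, 31 of 83 pairs of gene and 3′UTR cluster, 37.3% (27.7 to 48.1%), were also found under the CDS of the same gene, against 20.95% over all genes. Without those clusters the 3′UTR share of the 36 genes in Adult was 7.57%. In all, 33 of the 36 genes had a 3′UTR cluster in at least 1 library, and C3, C6 and Cpb2 had none. The number of genes with one was 19, 14, 19, 27 and 26 from e12.5 to Adult.

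The 36 genes had 257, 239, 323, 680 and 687 mRNA clusters. A gene had a median of 16 clusters in Adult against 3 over all genes, and sites for a median of 95 miRNAs against 16. At e12.5 these were 6 against 5 clusters and 32 against 28 miRNAs. C3 led both later libraries, with sites for 429 miRNAs at P7 and 350 in Adult. Clusters also recurred. Of 968 places on the 36 genes, counted by overlap on the same strand, 78 were bound in all 5 libraries, 8.06% (6.50 to 9.94%) against 1.69% of the 209925 places over all genes. Reads per gene were not matched in this comparison. Within a gene, a single cluster took a large share: the top cluster held a median of 46.0% of a gene's reads at e12.5 and 30.7% in Adult.

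In Adult the cluster with most reads in any of the 36 genes, that of Fgb, held a site for miR-122-5p. This miRNA made up 1.44% of the miRNA numbers in the table at e12.5 and 11.2% in Adult. The 5 places below are shown, since their clusters held most of the reads in clusters of the group with a miR-122-5p match. These are reads of whole clusters and do not carry their miRNA. Each fragment below is the target stretch from the tables, 5′ to 3′ on the mRNA strand, found without mismatch in GRCm38 (mm10), with the seed match in capitals and coordinates of the whole fragment.
Fgb, chr3:83044913-83044934, minus strand, CDS, exon 4 of 8: aatggaatactgccgCACTCCA
Cfb, chr17:34857059-34857080, minus strand, CDS, exon 16 of 18: tgcctctgaggtggtCACTCCA
C3, chr17:57222906-57222927, minus strand, CDS, exon 13 of 41: cttgtccctgcccatCACTCCA
Kng1, chr16:23067772-23067793, plus strand, CDS, exon 4 of 10: gagcctgttctgaaACACTCCA
F5, chr1:164195563-164195584, plus strand, CDS, exon 14 of 25: tgaagacacaggccACACTCCA
Exons are those of the GENCODE M21 transcript with the longest CDS. The first 3 match bases 2 to 7 of the miRNA with an A opposite base 1 (7mer-A1), and the last 2 match base 8 as well (8mer).

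The Fgb site had 310, 238, 2219, 675 and 8441 reads, or 6.91, 14.4, 171, 40.9 and 339 rpm. It followed the dip of the whole gene at P7. In Adult it was the top cluster of Fgb and held 66.2% of the gene's reads. The Cfb site had 7.67, 7.87, 121, 218 and 264 rpm, without a dip, and its cluster held 76.3% of Cfb reads in Adult. The C3 site was not listed at e12.5, and its later values were 7.45, 84.7, 266 and 168 rpm. For Kng1 the values were 1.18, 1.39, 32.8, 18.6 and 54.6 rpm, and for F5 0.290, 4.96, 10.2, 37.8 and 33.2 rpm. In Adult the Kng1 cluster held 1587 reads against 1359 at the site, and a match to miR-378a-3p as well. Wherever listed, all 5 sites were lower at e12.5 and e15.5 than in the later 3 libraries. The conservation score from the tables, from 0 to 1, was 0.917 for Cfb, 0.571 for C3 and 0.453 for Fgb, but 0.003 for Kng1 and 0.009 for F5.

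**Figure D5:**
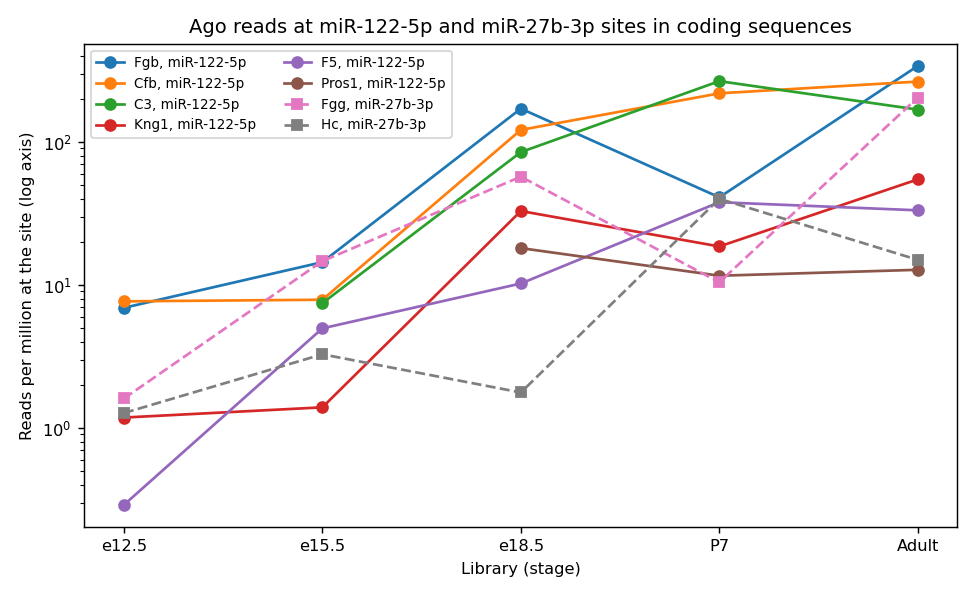
Values in rpm at 6 miR-122-5p sites (circles) and 2 miR-27b-3p sites (squares) in coding sequences by library, on a log axis. The Fgb, Cfb and C3 sites lie between 168 and 339 in Adult, and a missing point means that the site is not listed.

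Clusters with a miR-122-5p match of at least 7 bases held 3.61%, 2.70%, 11.2%, 18.3% and 18.7% of the mRNA-region reads of the 36 genes. Over all genes the shares were 0.59%, 0.68%, 1.96%, 4.12% and 5.18%. In Adult, Fgb, Cfb and C3 held 87.0% of these reads, and in the other 33 genes such clusters held 3.60% of reads. By number the clusters were few, 8 of 687 in Adult or 1.16% (0.587 to 2.28%), against 1.89% over all genes. At e12.5 the share by number was 1.95% (0.834 to 4.47%) against 0.656%, and at e15.5 2.09% (0.897 to 4.80%) against 0.927%. At e18.5 it was 1.86% (0.854 to 3.99%) against 1.36%, and at P7 1.47% (0.801 to 2.69%) against 1.37%. In all, 9 of the 36 genes, 25% against 11.3% of all genes, had such a site in an mRNA region: C3, C4bp, Cfb, F11, F5, Fgb, Hc, Kng1 and Pros1. In 7 of them it lay in the CDS, and 3 genes, C2, C4bp and Cfb, had a miR-122-5p site of any length in a cluster listed under the 3′UTR, of 33 genes with such clusters. That share, 9.09%, was near the 10.3% over all genes. In the CDS, 30.6% of the 36 genes had a site of any length against 13.3% of genes with a CDS cluster, while the 36 genes had more clusters each.

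For Cfb the annotation places the site in the CDS. All 7 protein-coding transcripts with an exon at the site have it in the CDS, 259 nt before the last coding base of the longest. The tables list the cluster under both regions, and under the overlapping gene Gm20547 as well. With clusters listed under 1 gene only, C4bp alone remained among the genes with a 3′UTR site. The C4bp site, in the last of 10 exons, had 34 reads at P7 and 37 in Adult. Next to the Cfb site lies a miR-192-5p match of the 7mer-A1 kind at chr17:34857084-34857104, also in exon 16, and the sequences are shown because the same cluster holds both sites.
Cfb, target of miR-192-5p: ccaaggctatgagaAGGTCAA
miR-192-5p, mature (RefSeq, GRCm38.p6): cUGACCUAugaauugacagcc
In the mature miRNA the capitals mark the seed, bases 2 to 8. The site was not listed at e15.5, and its other values were 3.08, 92.4, 198 and 235 rpm. Reads of this cluster cannot be divided between the miRNAs, since a read does not carry its miRNA.

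By the number of genes, the miR-27 seed reached furthest. Matches of at least 7 bases to miR-27a-3p and miR-27b-3p, which share bases 2 to 8, were found in 16 of the 36 genes, 44.4% against 17.3% of all genes. As a share of CDS clusters in Adult, 2.58% (1.60 to 4.15%) held one, against 1.81% over all genes, which lies inside the interval. The sites with most reads at the site itself were in Fgg and Hc, both full matches of the 8mer kind. By the reads of the whole cluster, summed over the libraries, an 8mer site of Fgb listed in 3 libraries stood above that of Hc, with 98.9 against 61.2 rpm.
miR-27b-3p, mature (RefSeq, GRCm38.p6): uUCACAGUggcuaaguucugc
miR-27a-3p, mature (RefSeq, GRCm38.p6): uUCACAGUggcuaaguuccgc
Fgg, chr3:83010530-83010550, plus strand, CDS, exon 6 of 9: cagttcttagtgtACTGTGAA
Hc, chr2:35039677-35039697, minus strand, CDS, exon 7 of 41: gaactttgaaatcACTGTGAA
The Fgg site had 1.60, 14.6, 57.0, 10.4 and 204 rpm from e12.5 to Adult, with the same dip at P7 as the miR-122-5p site of Fgb. The Hc site had 1.27, 3.27, 1.77, 39.9 and 14.9 rpm, highest at P7 as was Hc itself. Both sites had a conservation score of 1 and were listed in all 5 libraries. Together miR-27a-3p and miR-27b-3p made up 0.49% of miRNA numbers at e12.5 and 2.87% in Adult.

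Other seeds reached fewer genes. The miR-125b-5p and miR-351-5p seed and that of miR-136-5p each had matches in 11 genes, 30.6% against 8.12% and 10.6% of all genes, and miR-16-5p in 10, 27.8% against 23.6%. Then came miR-29a-3p and miR-30a-3p with 7 genes each, 19.4% against 10.3% and 10.9%. miR-192-5p, miR-194-5p, miR-223-3p, the miR-26 seed and the miR-30 seed had 6 each, 16.7% against 3.36% to 10.7% of all genes. The 36 genes had more clusters each, so these shares are not of like numbers of clusters. As a share of CDS clusters in Adult, miR-125b-5p and miR-351-5p stood at 1.77% (0.994 to 3.15%) against 0.55% of all genes, and miR-16-5p at 1.45% (0.766 to 2.74%) against 2.76%. The let-7 seed, 21.5% of miRNA numbers in Adult, had matches in 4 genes, C3, C8g, Fga and Proc, or 11.1% against 11.2% of all genes, and in 0.48% (0.165 to 1.41%) of CDS clusters against 1.56%. miR-142a-3p, 32.2% of miRNA numbers at e12.5 and 4.34% in Adult, had matches in 5 genes, C3, C8a, F10, Plg and Serpinf2, or 13.9% against 7.15% of all genes. At e12.5 it had a match in 0 of the 257 mRNA clusters of the group (upper limit 1.47%), against 0.779% of those of all genes.

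Some high clusters held no match of 7 bases to any of the 20 highest miRNAs. This was so for the top cluster of 24 of 36 genes in Adult, 66.7% against 76% of all genes, and among the leading genes for Fga, Fgg and F2. The top cluster of F2 held 58.3% of the gene's reads in Adult, at chr2:91630732-91630828, and that of Fgg 46.1%, at chr3:83007856-83007973, which is listed under both the 5′UTR and the CDS. The top Fga cluster, with 46.3% of reads, lay at chr3:83030850-83031123. Inside it, the miR-136-5p place of Fga, atgcggcagatgagAATGGAGc at chr3:83031082-83031103 in exon 5 of 6, had 3.70, 10.3, 47.5, 10.1 and 3.86 rpm. miR-136-5p itself stood at 3.11% of miRNA numbers at e12.5 and 0.03% in Adult.

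In clusters listed under the 3′UTR, 6 sites met the rule for named sites, and 5 of them lay wholly or, in Plg, partly in the CDS of the main transcript. The exception was Fga, with a miR-144-3p match in its last exon at chr3:83033531-83033550. It was not listed at e12.5 and then had 15.7, 9.53, 3.27 and 7.76 rpm, and its conservation score was 1.
Fga, target of miR-144-3p: ccattgttctttgTACTGTA
miR-144-3p, mature (RefSeq, GRCm38.p6): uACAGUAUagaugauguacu
Plg, target of miR-223-3p: gggagatgaggaatAACTGACt
miR-223-3p, mature (RefSeq, GRCm38.p6): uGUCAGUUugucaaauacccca
The Plg place lies at chr17:12419108-12419129, and its match spans the end of the CDS. It had 4.30, 19.4 and 15.4 rpm in the embryonic libraries and was not listed at P7 and Adult, where Plg as a whole had 143 and 137 rpm. miR-223-3p, a miRNA of myeloid cells, made up 0.52%, 0.34%, 2.87%, 0.90% and 0.10% of miRNA numbers in the 5 libraries. A further match to miR-223-3p in exon 7 of 10 of Serpinf2 had 1.11 rpm at e12.5 and 6.75 rpm in Adult, and a match to miR-125b-5p in the CDS of Fga, 426 nt before its last coding base, had 23.3 rpm at P7 and 3.30 rpm in Adult.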

How the data were processed

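Ago HITS-CLIP tables of 5 liver stages were analysed, 1 per stage, with samples grouped by their titles. The authors trimmed the reads with the FASTX-Toolkit, mapped them with Bowtie to mm10 (the submitters' processing notes also name mm9) and to miRNA precursors, grouped overlapping reads into clusters, annotated them and scanned for seed matches. The deposited read column is a signal, the highest read number at a site, in unscaled whole numbers of 5 or more. Its header names the miRNA target at e12.5 and the peak in the other tables, without explanation, which bears on every value set against e12.5. Read numbers differed between the sites of a cluster in 12.3% of clusters of several sites at e12.5 and in 8.98% to 13.5% in the other tables. The deposited conservation and free energy columns are scores, and the free energies were not used. The number in each miRNA name is not explained in the tables and was taken as the reads of the miRNA. Printed fragments were found without mismatch in GRCm38.

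A cluster took the highest read number among its sites, lists of a table were added, and clusters that overlapped on 1 strand were joined. The 36 genes, the other lists and the rules were chosen with earlier results of these data known. A gene was called at 4-fold, among genes listed in both libraries. All 5 values are given for the 14 genes with the highest sum of rpm and for the highest gene of a role group with none among them. Named sites, those with most cluster reads, had at least 7 matched bases, a miRNA among the 20 highest and a listing in at least 3 libraries. The 10 seeds found in most genes were to be named, and ties made them 12. The other genes and sites given with values, miR-142a-3p and the let-7 seed were chosen after their values were seen. GENCODE M21 gave exons and lengths. Shares have 95% Wilson intervals, for counting error only. The alternatives tried were other scalings, each list alone, other folds, clusters of at least 10 reads, all regions, no top cluster, clusters of 1 gene and cluster numbers. The steps between neighbouring stages were also recomputed on the scale of mRNA clusters and over every list, chosen after seeing the data. The scripts were tested on simulated data. Python 3.11.15, numpy 2.4.6, pandas 2.3.3, pysam 0.24.0 and matplotlib 3.10.9 were used.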

Additional observations from a re-analysis of the deposited data

Results flagged for a closer look

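Clusters that lay only in introns of the 36 genes were left out of the values above. They held 17.9 rpm at e12.5, 34.1 rpm at e15.5, 208 rpm at e18.5, 168 rpm at P7 and 109 rpm in Adult. Masp1 introns held the most reads of any gene in each library, with 9.50, 17.1, 93.5, 35.0 and 26.2 rpm. In each library this was more than its mRNA clusters had, with 6.31, 1.39, 0.692, 8.55 and 10.3 rpm. The source of the intron reads was not tested.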

How the results depend on the processing

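No paired analysis was possible because each stage has 1 library in the labels. Of 73 recomputed values, 13 moved past the limits set. For the summed levels the limit was the standard deviation of the values from the 2 lists, on the log2 scale. It was 0.904 for Adult over e12.5 and 0.705 for P7 over e18.5. Those lists are among the alternatives judged, so a value within the limit says little. For counts the limit was a fixed fold, and for the 3′UTR share its Wilson interval. The Adult level of the 36 genes over e12.5 lay between 6.15-fold (first list) and 17.6-fold (mRNA reads). The level at P7 over e18.5, 0.845-fold, was 1.51-fold with the second list, 1.17-fold with the library totals of the study, 1.24-fold with mRNA reads and 1.30-fold by cluster number, so it has no fixed direction. A second library is named for e18.5, and the 1.17-fold uses the total of the first. With both totals added, chosen after seeing the data, it was 6.15-fold. The cluster reads of the e18.5 table were 59% of the first total and 11.2% of both, against 62.3% to 81.6% at the other stages, and whether the table holds the second library is not stated in the labels. The count of genes at least 4-fold higher in Adult, or past the other folds tried, lay between 20 and 29, out of 25 to 34 compared. The share of all genes lay between 4.66% and 21.4%. The count of those lower stayed at 0, except 1, F11, with the first list, while the share of all genes lay between 3.28% and 48.8%. For the steps between neighbouring stages 2 alternatives were chosen after seeing the data. With every list of a stage that holds the gene, the genes at least 4-fold higher went from 9 to 2 (e15.5 over e12.5), 12 to 6 (e18.5 over e15.5) and 5 to 1 (P7 over e18.5), and those lower from 4 to 1 (e15.5 over e12.5) and 1 to 0 (P7 over e18.5). With mRNA reads those lower went from 1 to 0 in both later steps, and those higher in Adult than at P7 from 2 to 8. On that scale those higher also went from 9 to 6 at e15.5 over e12.5, where C8g, F12 and Serpinc1 lost the call, and from 5 to 7 at P7 over e18.5, and those lower from 4 to 5 at e15.5 over e12.5. For these recounts of the steps no share over all genes was computed, except by mRNA reads between P7 and Adult. The others therefore cannot be set against a background. The 3′UTR share in Adult, 12.1%, was 7.57% without clusters that are also listed under the CDS of the gene, an alternative chosen after seeing the data. Genes with a miR-122-5p site in a 3′UTR cluster, 3 in all, came to 1 with clusters of 1 gene only, since that setting drops Cfb and C2. Genes with few reads, such as C2, C4b, F11 and Masp1 at e15.5 and Masp2 at e12.5, rest on 5 to 23 reads, and an unlisted gene may have had reads below the lowest listed number of 5.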
